A study of Danio rerio with 6 samples.

Results

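The genes described here encode Wnt ligands of the zebrafish embryo, Wnt receptors and inhibitors, and proteins that carry the signal inside the cell. They were chosen by gene symbol, with earlier results of these data known. The probe sets taken were those whose single symbol begins with the name of such a family (*wnt*, *fzd*, *axin*, *dkk*, *sfrp*, *ctnnb*, *dvl*, *csnk* and others). This gave 58 genes on 70 probe sets, out of 8793 genes with a single symbol and 15502 probe sets in all. Family members without such a probe set are not covered, and *lrp5*, *lrp6* and *apc* are not among the 58. A gene with several probe sets was represented by the one whose mean over the 6 arrays was highest. Total RNA came from whole embryos at 24 hpf, from 3 fogsk8 mutant samples and 3 WT sibling samples of equal embryo number, and was measured on Affymetrix Zebrafish Genome Arrays, 1 per sample. The sk8 allele truncates Foggy/Spt5, a transcription elongation factor, and the mutants are zygotic, so both groups began with maternal Spt5 protein, some of which is left in the mutants at this stage. The sources used here do not give the share of heterozygous fish among the WT siblings. The replicates are labelled biological, and their number limits the precision of every value.

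Wnt proteins are secreted lipid-modified ligands that bind Frizzled receptors. In the canonical branch, receptor activation through the co-receptors Lrp5 and Lrp6 and the adaptor Dishevelled blocks a complex of Axin, Apc, glycogen synthase kinase 3 and casein kinase 1 that otherwise marks beta-catenin for destruction, and the beta-catenin that accumulates acts with Tcf/Lef factors in the nucleus. Other branches of the pathway, with Vangl, Prickle and Celsr proteins, set the polarity of cells in a plane and the movements of gastrulation. In the zebrafish embryo, the pathway patterns the dorsal axis early and later the tail, the neural tube and the neural crest.

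The mutated gene, *supt5h*, had log2 values of 7.42, 7.56 and 6.80 in the WT samples and 3.66, 3.70 and 3.81 in the mutants (adjusted p = 0.000994 by limma). Its transcript was thus lower in the samples labelled mutant. All levels are log2 values from GC-RMA as deposited, whose array medians lay between 5.08 and 5.15. Changes are given as the mutant mean minus the WT mean, with the standard error (SE) and the adjusted p (Benjamini-Hochberg, over all 15502 probe sets) from limma. Replicate 3 stood apart in both groups, with a mean correlation of 0.991 to 0.992 with the other arrays of its group against 0.994 for the others. A log2 value under 4 in the means of both groups is called dim, and a group with all 3 arrays under 3 is called near the floor, where a difference is understated.

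No Wnt pathway gene was called at 2-fold on the probe set that represented it. With a threshold of 2-fold besides an adjusted p under 0.05, 0 of the 58 genes were higher and 0 were lower in fogsk8 embryos, where 0.898% and 3.2% of all genes were called in these directions, or 4.09% in either. The methods' t-test, at an unadjusted p under 0.05 and 2-fold, also called 0 of the 58. It uses the same changes, none of which reached 2-fold, so it could call none. Without a minimum fold, 6 genes rose and 5 fell by limma, against 10.8% and 9.14% of all genes. These 11 genes are 19.0% of the 58, beside 19.9% of all genes, so the share called was near that of the array as a whole. At an unadjusted p under 0.05, 17 of the 58 and 3202 of the 8793 genes differed. The 3 mutant arrays lay wholly above or below the 3 WT arrays in 19 of the 58 genes, or 32.8%, beside 40.9% of all genes.

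**Figure D1:**
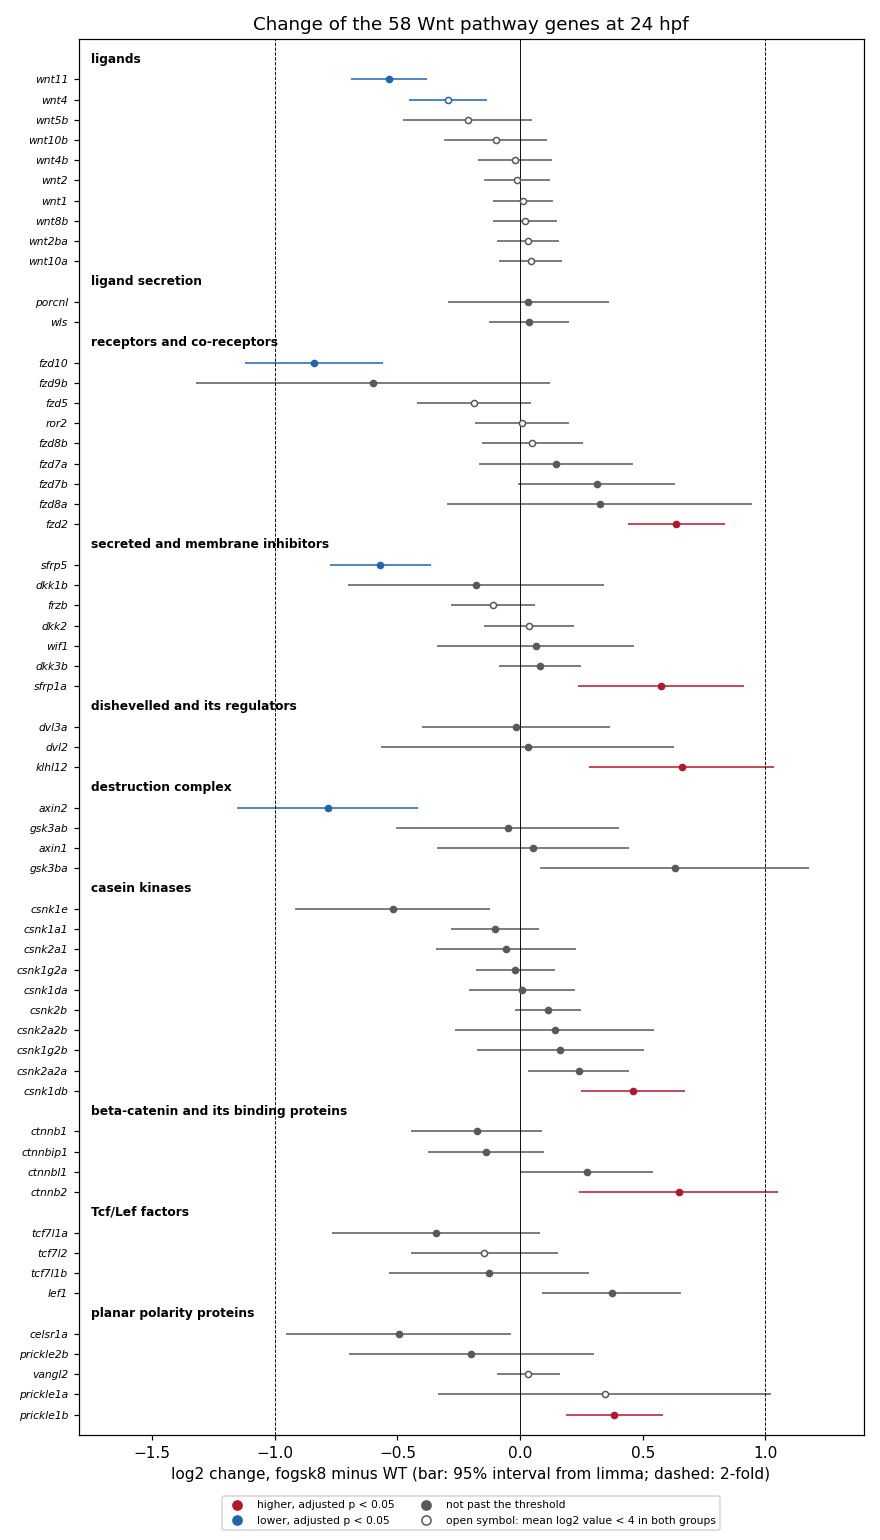
Log2 change (fogsk8 minus WT) of the 58 Wnt pathway genes by role, with the 95% interval from limma as bars and the 2-fold limits as dashed lines. The points lie between −0.84 (*fzd10*) and 0.66 (*klhl12*), 11 are past an adjusted p of 0.05, and open symbols mark the 17 dim genes.

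The size of the changes can also be bounded. The 95% interval of the change lay wholly within 2-fold for 51 of the 58 genes (87.9%, against 84.2% of all genes). In the other 7, *axin2*, *ctnnb2*, *fzd10*, *fzd9b*, *gsk3ba*, *klhl12* and *prickle1a*, the interval reached past 2-fold in one direction, the widest from −1.32 to 0.12 for *fzd9b*. Of the 58 genes, 17 were dim, where a narrow interval says little about the transcript. Among the 41 others, the median size of the change was 0.20 on the log2 scale and the 90th percentile 0.64, beside 0.29 and 0.81 for the 6436 genes of the whole array that were not dim. In these 41 genes no change reached 2-fold, and 6.46% of the 6436 genes did. Of the 41, 10 were called at any fold, beside 26% of the 6436. The median signed change was 0.016 over the 58 genes and 0.057 over all genes. In the 41 genes, the median deviation from the WT mean was −0.12 in WT replicate 3 and 0.10 in WT replicate 1. Over the 6436 genes these were −0.026 and 0.024. The mutant replicates deviated by −0.052 to 0.048 in the 41 genes and by −0.013 to 0.0081 in the 6436.

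**Figure D2:**
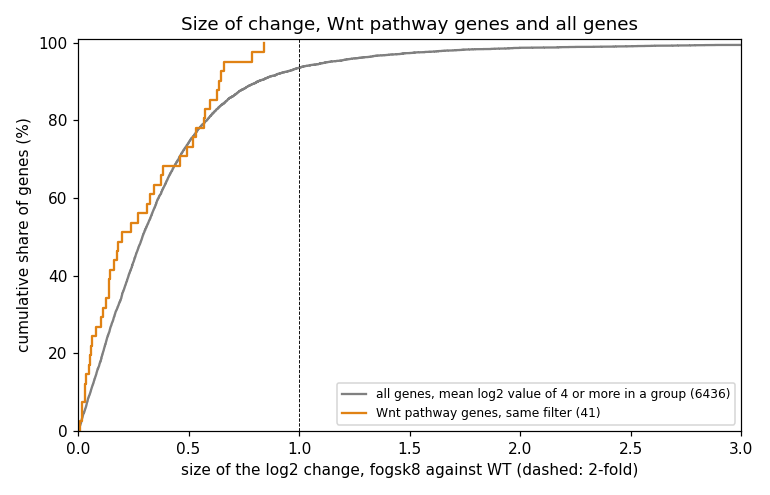
Cumulative share of genes by the size of the log2 change, for the 41 Wnt pathway genes that were not dim and for the 6436 genes of the array under the same filter. The curve of the Wnt pathway genes ends at 0.84, short of the dashed line at 2-fold, while 6.46% of all genes lie beyond it.

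Among the ligands, *wnt11* fell and the other 9 were near the floor in both groups. The probe set named *wnt11* reads the gene also known as *wnt11r*, and not *wnt11f2*, the gene mutated in *silberblick*. Wnt11 proteins act mainly through the branches without beta-catenin. Its log2 values were 7.15, 7.06 and 7.20 in the WT samples, and 6.66, 6.58 and 6.56 in the mutants. All mutant arrays were below all WT arrays, with narrow spread in both groups (SD 0.071 and 0.052, n = 3). The change was −0.54 (SE 0.063, adjusted p = 0.00614), or 1.45-fold lower, the lowest adjusted p among the 58 genes. The other 9 ligand genes, *wnt1*, *wnt2*, *wnt2ba*, *wnt4*, *wnt4b*, *wnt5b*, *wnt8b*, *wnt10a* and *wnt10b*, had all 6 arrays under a log2 value of 3. For these, 8 changes were between −0.21 and 0.043 with adjusted p = 0.237 to 0.877, and at this level a change in the transcript would hardly be seen. *wnt4* passed the test, at 2.19, 2.11 and 2.29 in WT and 1.92, 1.89 and 1.89 in the mutants (change −0.30, SE 0.064, adjusted p = 0.0322). Both groups of *wnt4* lie near the floor, so no fold is given, and its call was lost without any 1 of the 6 arrays (adjusted p = 0.0527 to 0.0958) and with the arrays centred on their medians (adjusted p = 0.0669).

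The machinery that releases the ligands had like values in both groups. *wls* encodes the carrier that takes Wnt proteins to the cell surface, and read 10.24, 10.22 and 10.29 in WT and 10.39, 10.23 and 10.24 in the mutants. Its change was 0.036, with a 95% interval of −0.13 to 0.20, and on its other probe sets −0.032 and 0.031. The probe set with 0.031 was near the floor in both groups. *porcnl*, of the Porcupine family of enzymes that attach the lipid to Wnt, had a change of 0.033 (95% interval −0.29 to 0.36).

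Of the 9 receptor genes, *fzd10* fell and *fzd2* rose. *fzd10* read 8.85, 8.88 and 8.51 in WT and 7.85, 7.99 and 7.88 in the mutants. The groups did not overlap, and the change of −0.84 (SE 0.11, adjusted p = 0.00906), or 1.79-fold lower, was the widest of the 58 genes. A second probe set for *fzd10*, of a kind whose probes may match more than this transcript, read 7.01, 7.18 and 6.50 in WT and 5.94, 5.98 and 6.11 in the mutants and fell as well (change −0.89, SE 0.18, adjusted p = 0.0267). *fzd2*, another Frizzled receptor, went the other way, from 7.68, 7.58 and 7.72 to 8.43, 8.25 and 8.21. Here all mutant arrays were above all WT arrays, a change of 0.64 (SE 0.080, adjusted p = 0.00759) or 1.55-fold higher.

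Of the 7 other receptor genes, none passed the test on the probe set used, with changes of −0.60 to 0.32. The widest was that of *fzd9b*, at 6.52, 6.63 and 6.40 in WT and 6.25, 6.27 and 5.24 in the mutants (adjusted p = 0.229). Its low value is that of mutant replicate 3, although the groups do not overlap. The second probe set of *fzd9b* had a change of −1.04 (SE 0.35, adjusted p = 0.104), past 2-fold in size but not past the test. *fzd7b* had mutant arrays above all WT arrays too (change 0.31, adjusted p = 0.166), and its second, dimmer probe set passed at any fold (7.75, 7.64 and 7.63 in WT and 7.93, 8.26 and 8.25 in the mutants, change 0.47, SE 0.11, adjusted p = 0.0366). Its paralog *fzd7a* had a change of 0.15 (95% interval −0.17 to 0.46). *fzd8a* had a change of 0.32, and *fzd5*, *fzd8b* and *ror2*, a tyrosine kinase receptor for Wnt, were dim, at −0.19 to 0.050.

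The secreted inhibitors *sfrp5* and *sfrp1a* moved in opposite directions. Both encode secreted Frizzled-related proteins, which bind Wnt outside the cell. *sfrp5* read 6.41, 6.23 and 6.26 in WT and 5.69, 5.85 and 5.65 in the mutants, without overlap, and fell by 0.57 (SE 0.083, adjusted p = 0.0111). The other probe set of *sfrp5* was under 2 on all 6 arrays and had a change of 0.032. *sfrp1a* rose, from 6.20, 5.76 and 6.19 to 6.65, 6.70 and 6.53 (change 0.57, SE 0.14, adjusted p = 0.0417). WT replicate 2 was the lowest of its group. The call of *sfrp1a* was lost without WT replicate 1 or 3 or mutant replicate 1, 2 or 3 (change 0.54 to 0.65, adjusted p = 0.0539 to 0.118), in the fit blocked by replicate number (adjusted p = 0.0523) and after another quantile normalization (adjusted p = 0.0579). The genes of this group that did not pass were *dkk1b*, *dkk2* and *dkk3b* of the Dickkopf family, and *frzb* and *wif1*, whose products bind Wnt. Their changes were −0.18 to 0.081 with adjusted p = 0.338 to 0.802, and *dkk2* and *frzb* were dim.

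**Figure D3:**
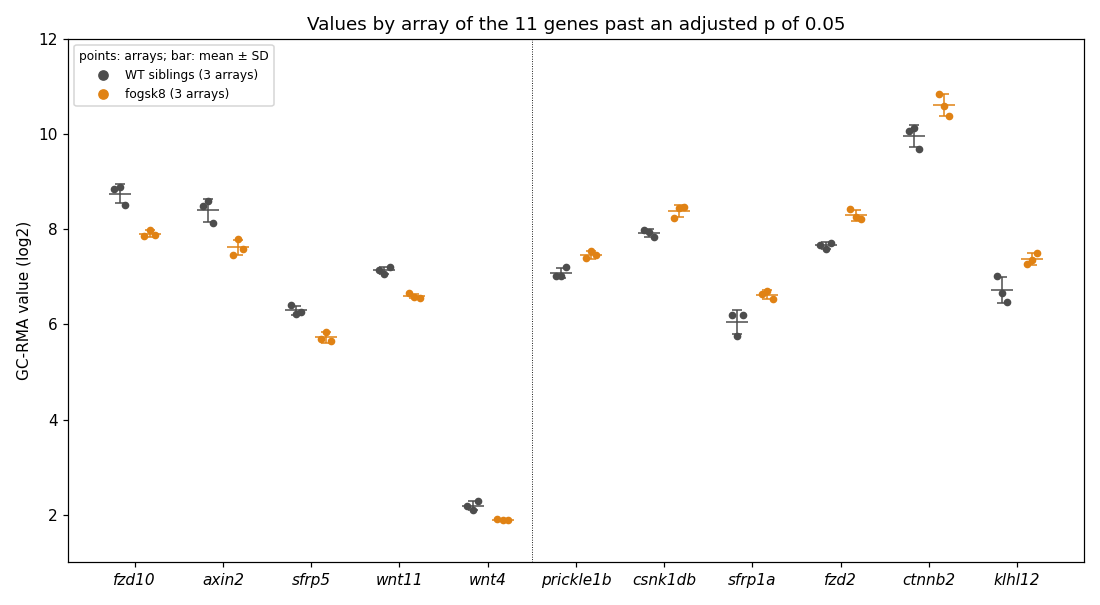
GC-RMA values on the log2 scale of the 11 genes past an adjusted p of 0.05, with 1 point for each of the 3 WT and 3 fogsk8 arrays and bars for the mean ± SD. The 5 genes left of the dotted line were lower and the 6 to the right were higher in the mutants, and *wnt4* lies near the floor in both groups.

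Inside the cell, *axin2* fell. It encodes a scaffold of the complex that marks beta-catenin for destruction, and is itself widely used as a target gene of the pathway. It read 8.48, 8.59 and 8.13 in WT and 7.47, 7.79 and 7.59 in the mutants. All mutant arrays were below the lowest WT array, with a change of −0.79 (SE 0.15, adjusted p = 0.0221), or 1.72-fold lower. The call was lost without WT replicate 1 or 2 or mutant replicate 1 or 3 (change −0.77 to −0.69, adjusted p = 0.0619 to 0.0721). *axin1*, the scaffold gene that is not induced by the pathway, read 6.99, 7.08 and 6.57 in WT and 6.91, 7.10 and 6.79 in the mutants (change 0.052, 95% interval −0.34 to 0.45), and −0.18 on its other probe set. The difference between the changes of *axin1* and *axin2* was not tested. The glycogen synthase kinase 3 genes *gsk3ab* and *gsk3ba* had changes of −0.051 and 0.63, the latter from 4.53, 4.12 and 3.92 to 4.94, 5.07 and 4.46 (SE 0.22, adjusted p = 0.115). *gsk3ba* thus had overlapping groups, and passed at any fold in the fit blocked by replicate number.

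Neither of the Dishevelled genes measured passed the test, and a gene that acts on Dishevelled rose. *klhl12* encodes an adaptor of a ubiquitin ligase that marks Dishevelled for degradation in human cells and zebrafish. It read 7.01, 6.66 and 6.47 in WT and 7.26, 7.35 and 7.51 in the mutants, without overlap (change 0.66, SE 0.15, adjusted p = 0.0379). The call was lost without WT replicate 2 or 3 or mutant replicate 1, 2 or 3 (change 0.54 to 0.71, adjusted p = 0.0678 to 0.104) and in the blocked fit (adjusted p = 0.056). *dvl2* and *dvl3a* had changes of 0.031 (95% interval −0.57 to 0.63) and −0.016 (95% interval −0.40 to 0.37).

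Of 10 casein kinase genes, 1 rose at any fold, or 10%, beside 10.8% of all genes. *csnk1db*, one of the casein kinase 1 delta genes, read 7.99, 7.94 and 7.84 in WT and 8.24, 8.44 and 8.47 in the mutants, without overlap. Its change was 0.46 (SE 0.086, adjusted p = 0.0214), and the call was lost without WT replicate 1, 2 or 3 or mutant replicate 2 or 3 (change 0.42 to 0.50, adjusted p = 0.0528 to 0.0704). Its paralog *csnk1da* had a change of 0.0086, with a 95% interval of −0.21 to 0.23. The widest change among the other 9 genes was that of *csnk1e*, from 4.65, 4.86 and 4.39 to 4.001, 4.37 and 3.97 (change −0.52, SE 0.16, adjusted p = 0.0837). Its groups lay apart by little, and it passed in the blocked fit (adjusted p = 0.0192). *csnk1a1*, the casein kinase 1 alpha that phosphorylates beta-catenin first, had a change of −0.10, and *csnk2b*, the regulatory subunit of casein kinase 2, of 0.11. The genes *csnk1g2a*, *csnk1g2b*, *csnk2a2a* and *csnk2a2b*, for other forms of these kinases, had changes of −0.020 to 0.24, and in *csnk2a2a* all mutant arrays were above the WT arrays (adjusted p = 0.112). For *csnk2a1*, a catalytic subunit of casein kinase 2, the 2 probe sets differed: −0.057 (adjusted p = 0.758) on the brighter and −0.39 (SE 0.094, adjusted p = 0.0422) on the dimmer.

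The beta-catenin genes differed. *ctnnb2* read 10.06, 10.13 and 9.69 in WT and 10.84, 10.59 and 10.39 in the mutants, all above the WT arrays. Maternal product of this gene is needed for the dorsal axis of the embryo. Its change of 0.65 (SE 0.16) passed only narrowly, at an adjusted p of 0.0493, and the call was lost without any 1 of the 6 arrays (change 0.51 to 0.76, adjusted p = 0.0575 to 0.119) and after another quantile normalization (adjusted p = 0.0684). *ctnnb1* read 10.90, 10.75 and 10.69 in WT and 10.80, 10.51 and 10.49 in the mutants (change −0.18, 95% interval −0.45 to 0.091), and its other probe set had a change of −0.22. The difference between the 2 genes was not tested. *ctnnbip1*, whose product keeps beta-catenin from Tcf factors, had a change of −0.14. *ctnnbl1*, which encodes a protein of the spliceosome and is a member by its symbol only, had a change of 0.27 (adjusted p = 0.156).

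None of the 4 Tcf/Lef genes passed. *lef1*, which encodes a nuclear partner of beta-catenin, came nearest, from 4.38, 4.62 and 4.21 to 4.83, 4.80 and 4.69. All its mutant arrays were above the WT arrays by a small margin (change 0.37, SE 0.11, adjusted p = 0.0818), and it passed without WT replicate 2 (change 0.48, adjusted p = 0.0432). *tcf7l1a* and *tcf7l1b*, which act mainly as repressors in the head, had changes of −0.34 and −0.13, and *tcf7l2* was near the floor in both groups (−0.15).

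Among 5 genes of planar polarity, *prickle1b* rose, from 7.02, 7.01 and 7.20 to 7.39, 7.55 and 7.46. It encodes a cytoplasmic protein of the polarity complex. The groups did not overlap, and the change was 0.38 (SE 0.081, adjusted p = 0.0289). The call was lost without WT replicate 1 or 2 or mutant replicate 1, 2 or 3 (change 0.34 to 0.42, adjusted p = 0.0563 to 0.0928). *celsr1a*, a cadherin of the same complex, read 6.32, 6.40 and 6.40 in WT and 6.25, 5.87 and 5.51 in the mutants (change −0.50, SE 0.185, adjusted p = 0.133), and passed without mutant replicate 1 (change −0.68, adjusted p = 0.0412). *vangl2* was near the floor in both groups, at 2.30 to 2.39 over the 6 arrays. *prickle1a* was dim too, with a change of 0.34 and a 95% interval of −0.33 to 1.02, and *prickle2b* had a change of −0.20.

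**Figure D4:**
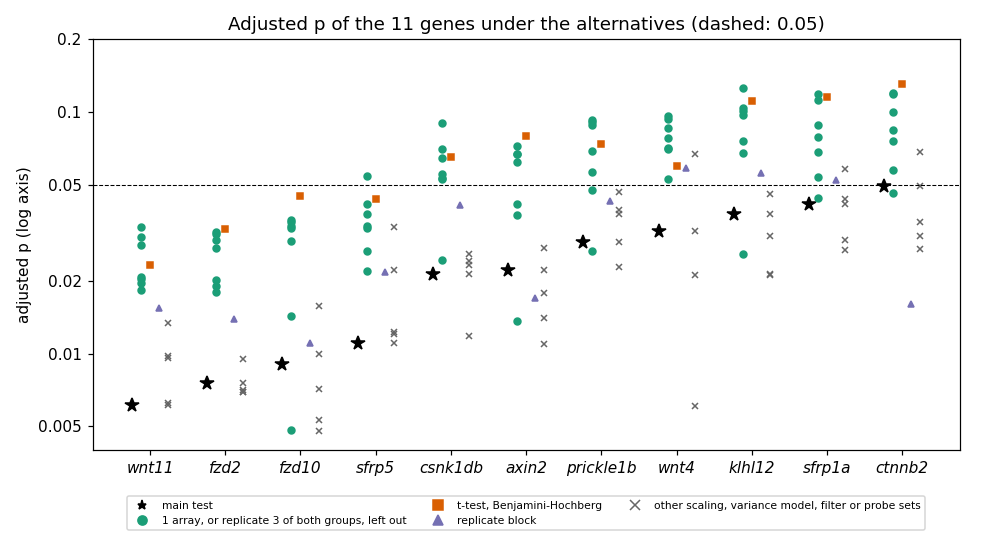
Adjusted p, on a log axis, of the 11 genes under the main test (stars) and its alternatives, with the threshold of 0.05 dashed. *wnt11*, *fzd2* and *fzd10* are under the line throughout, *sfrp5* is above it once, without replicate 3 of both groups, and each of the other 7 has points above the line.

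Leaving out single arrays kept 4 of the 11 genes past the threshold each time: *wnt11*, *fzd10* and *sfrp5*, which were lower, and *fzd2*, which was higher. *sfrp5* was just short of it without replicate 3 of both groups (change −0.55, adjusted p = 0.0541). Over the leave-one-out tests, 1 to 3 genes were higher and 3 to 4 lower, where the full set gave 6 and 5. The share of all genes called in these tests was not counted. Every one of the 11 kept its direction in all alternatives that included it, but most of these could not have reversed it. In all 11 the groups did not overlap, so leaving out arrays could not change the sign. Alternatives that altered only the test or the probe sets tested used the same changes. The sign could differ only with median centring, the repeated quantile normalization and the mean of a gene's probe sets. Of the 58 genes, 11 had more than 1 probe set, and in *axin1*, *csnk1da*, *sfrp5* and *wls* the probe sets differed in the sign of the change.

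Genes of the pathway outside these families, and known targets of its canonical branch, were taken from 5 lists, of which 59 genes were measured. The targets were 26 of the 59. At 2-fold, 1 rose and 0 fell, and at any fold 7 rose and 4 fell (18.6%, beside 19.9% of all genes). Of those called at any fold, 5 of the 7 that rose and 1 of the 4 that fell were targets. The gene that rose past 2-fold was *notum1b*, whose family of enzymes removes the lipid from Wnt and so inactivates it. It read 4.59, 4.37 and 4.27 in WT and 5.39, 5.81 and 6.43 in the mutants, without overlap (change 1.47, SE 0.27, adjusted p = 0.0201), or 2.77-fold higher. Its call was lost without WT replicate 1, 2 or 3 or mutant replicate 2 (change 1.402 to 1.56, adjusted p = 0.0504 to 0.0624). The call of *notum1b* held in 9 of 14 alternatives in all, with adjusted p up to 0.0794.

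Of 15 cytoplasmic regulators, 1 rose (6.67%) and 2 fell (13.3%) at any fold, and of 12 nuclear co-factors 0 rose and 1 fell (8.33%). Of all genes, 10.8% rose and 9.14% fell. The DIX domain genes *dixdc1a* and *dixdc1b*, whose products bind Dishevelled and Axin, both fell, by 0.66 in *dixdc1a* (SE 0.13, adjusted p = 0.023) and by 0.40 in *dixdc1b* (SE of 0.097, adjusted p = 0.0426). The kinase gene *dapk3* rose by 0.54 (SE 0.12, adjusted p = 0.0331), and *ctbp1*, a co-repressor, fell by 0.53 (SE 0.11, adjusted p = 0.0296). The calls of *dixdc1a*, *dixdc1b*, *dapk3* and *ctbp1* were each lost without some of the arrays: *dixdc1a* without WT replicate 2 or 3 or mutant replicate 1 or 2 (adjusted p = 0.0523 to 0.0717), *dixdc1b* without WT replicate 1, 2 or 3 or mutant replicate 1 or 3 (0.0653 to 0.124), *dapk3* without WT replicate 1 or 2 or mutant replicate 1 or 3 (0.0779 to 0.0969), and *ctbp1* without WT replicate 2 or 3 or mutant replicate 1 or 2 (0.0691 to 0.0904). The call of *dixdc1b* held in 4 of 14 alternatives in all, and was also lost with a mean-variance trend (adjusted p = 0.0859), median centring (0.0594) and another quantile normalization (0.0603). The only R-spondin gene measured, *rspo1*, was near the floor (change 0.082).

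Of 26 listed targets and readouts of the canonical branch other than *axin2* and *lef1*, 5 rose and 1 fell at any fold, or 19.2% and 3.85%, beside 10.8% and 9.14% of all genes, and none passed at 2-fold. Over the 26 genes, 18 changes were positive and 8 negative, beside 5600 positive and 3193 negative over all 8793 genes. Of the 26, 7 were dim and 5 of these were near the floor in both groups, where the sign of a change says little. *vox*, a homeobox repressor of dorsal fate that is induced by Wnt8 in the gastrula, read 6.47, 6.73 and 6.29 in WT and 7.43, 7.59 and 7.36 in the mutants. All mutant arrays were higher (change 0.97, SE 0.13, adjusted p = 0.00883). *id2a* rose as well (change 0.68, SE 0.097, adjusted p = 0.0102), and so did *tbx16*, a T-box gene of the tailbud, at dim values (2.65 to 3.14 in WT and 3.42 to 3.91 in the mutants, change 0.78, SE 0.18, adjusted p = 0.0367). The call of *tbx16* was lost without WT replicate 2 or 3 or mutant replicate 1, 2 or 3 (adjusted p = 0.0572 to 0.102). *myca*, a Myc gene, was the one that fell, from 7.75, 7.46 and 7.92 to 6.77, 6.81 and 6.98 (change −0.86, SE 0.13, adjusted p = 0.013). The calls of *vox*, *id2a* and *myca* held with any 1 array left out. With Benjamini-Hochberg adjustment, the methods' t-test did not call *myca* (adjusted p = 0.0582). The other called genes were *dlx3b* and *gbx2*, both homeobox genes. *dlx3b* rose by 0.64 (SE 0.14, adjusted p = 0.0331), and *gbx2* rose by 0.40 (SE 0.090, adjusted p = 0.0366). The call of *dlx3b* was lost without WT replicate 1 or 2 or mutant replicate 2 or 3 (adjusted p = 0.0617 to 0.0963). For *gbx2* it was lost without WT replicate 1, 2 or 3 or mutant replicate 1 or 2 (adjusted p = 0.0545 to 0.111) and in the blocked fit (adjusted p = 0.0577). The widest change of the list was that of *cdx4*, a caudal homeobox gene of the tailbud, which read 6.81, 6.65 and 5.27 in WT and 7.93, 8.06 and 7.19 in the mutants. All its mutant arrays were above the WT arrays, with WT replicate 3 the lowest (change 1.48, SE 0.47, adjusted p = 0.0874), and it passed in 3 of 14 alternatives, which were the blocked fit (adjusted p = 0.0104), the fit without dim probe sets (0.0348) and that without replicate 3 of both groups (0.0137).

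Markers of several tissues were lower in the mutants on the same arrays. Of all genes, 9.14% fell at any fold and 3.2% at 2-fold, and 10.8% and 0.898% rose. Of 14 neural markers, all of them bright enough not to be dim, 12 fell at any fold and 5 at 2-fold, and their mean log2 value was 8.46 to 8.57 in the WT samples and 7.47 to 7.59 in the mutants. At 2-fold, 9 of 10 erythroid, 8 of 11 skeletal muscle, 4 of 8 pigment and neural crest, 4 of 10 notochord and floor plate, 4 of 9 myeloid, 3 of 9 lens and retina, 2 of 5 pronephros and 2 of 4 endothelial markers fell. In some of these lists other markers rose at any fold, namely *foxa* (0.84, adjusted p = 0.00739 by limma) and *foxa2* (0.46, adjusted p = 0.0114) of notochord and floor plate, *six3a* (0.80, adjusted p = 0.0183) of lens and retina and *cebpa* (0.54, adjusted p = 0.0138) of myeloid cells. Without a call, *myog* (0.53) and *myod1* (0.44) of skeletal muscle, *hbbe2* (0.51) of erythroid cells and *foxd3* (0.35) of neural crest had positive changes. Their adjusted p was 0.288 to 0.506 by limma. Of 10 epidermal and 8 endodermal markers, 0 rose and 0 fell at 2-fold. At any fold, 1 epidermal marker rose (*krt8*, 0.71) and 2 fell (*tp63*, −0.97, and *cldni*, −0.53), and 0 endodermal markers were called by limma. At an unadjusted p under 0.05 by limma, 7 of the 10 epidermal and 1 of the 8 endodermal markers differed, beside 3202 of the 8793 genes. Of the 8 endodermal markers, 4 were dim, while 0 of the epidermal ones were. In whole embryos, fewer cells of a type and less RNA per cell cannot be told apart. The part of these tissues in the changes of *fzd10*, *wnt11*, *axin2* and the other Wnt pathway genes was not tested.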

How the data were processed

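The authors made the deposited values, which are on the log2 scale, from 6 Affymetrix Zebrafish Genome Arrays with GC-RMA, which models background from probe GC content, normalizes between arrays and gives 1 value per probe set. The sources used here give no version of it. Scanner files and absent-present calls were not used here. Samples were grouped by their titles.

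After removal of 115 control probe sets from 15617, the other 15502 went into limma 3.58.1 under R 4.3.3 (lmFit, eBayes, no covariate), with Benjamini-Hochberg adjustment over all of them. This takes the place of the methods' t-test, which was an alternative. A gene was called at an adjusted p under 0.05, with or without a 2-fold minimum. Gene symbols came from the platform annotation (10795 with 1 symbol, 135 with several and 4572 with none), and all 58 members matched a RefSeq table by Entrez ID. Role and marker lists, the members and the rule for named genes (members past the threshold, up to 20 below 2-fold; in each role the 2 with the highest mean and the 1 with the widest change; members with a called probe set and another of opposite sign; up to 4 called genes per other list) were chosen with earlier results of these data known. Other members are named to account for all 58, and *cdx4*, *dlx3b*, *gbx2*, the named tissue markers and the second probe sets of *fzd7b*, *fzd9b* and *csnk2a1* were picked out after their values were seen. Deviations of same-numbered replicates from their group means correlated at 0.12, 0.29 and 0.39, all over 0.1. A fit with the replicate number as a block was therefore run, although WT replicate 1 correlated more with mutant replicate 2 (0.18). Among the 58 genes, the adjusted p of the blocked fit is given where it changed a call, except for *gsk3ba*. Other alternatives were a mean-variance trend, median centring, a repeated quantile normalization, dim probe sets left out, the mean of a gene's probe sets and each array left out. The setting without replicate 3 in both groups was chosen after seeing the data. The fit was tested on simulated data with 200 of the 15502 probe sets changed. At any fold it found 68% of changes of 0.7 on the log2 scale, and 98% to 100% of those of 1.5 to 3. Most changes of the 58 genes were smaller than 0.7, so a gene that did not pass may still have changed. The share found depends on how many probe sets change, and more were called in the real data. Python 3.11.15, pandas 2.3.3 and matplotlib 3.10.9 were used. No sequences are printed.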

Additional observations from a re-analysis of the deposited data

How the results depend on the processing

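The count of 0 genes higher and 0 lower at 2-fold was the same under all alternatives. The t-tests, the mean-variance trend, the replicate block and the fit without dim probe sets use the changes of the main test. None of these changes reached 2-fold, so these alternatives could give no other count. At any fold, the methods' t-test with Benjamini-Hochberg adjustment called 1 gene higher and 3 lower. It lost *axin2*, *csnk1db*, *ctnnb2*, *klhl12*, *prickle1b*, *sfrp1a* and *wnt4*. Without replicate 3 of both groups, a setting chosen after seeing the data, 3 were higher and 3 lower. With each array left out in turn, 1 to 3 were higher and 3 to 4 lower, and the median change was −0.023 to 0.027, with −0.023 without mutant replicate 2. The replicate block called 10 genes, 8 of them among the 11: it lost *klhl12*, *sfrp1a* and *wnt4* (adjusted p = 0.0583) and added *csnk1e* and *gsk3ba*. The methods' t-test without adjustment called 15, among them all 11. A mean-variance trend and the mean of all probe sets called the same 11 genes. The share of all genes called was not counted under these alternatives, so whether the loss of calls is particular to the 58 genes cannot be told. The cause of the differences between the settings was not tested. Fits without an array also hold fewer samples, and the part of this was not tested. Dim genes limit what can be seen: 17 of the 58, among them 9 of the 10 ligands, had mean log2 values under 4 in both groups.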
